A study of Mus musculus with 108 samples.

Results

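The glandular kallikreins of the mouse are serine proteases encoded by a cluster of closely related genes on chromosome 7. They were chosen here by name: Klk1, Klk1b5, Klk1b11, Klk1b16, Klk1b21, Klk1b22, Klk1b24, Klk1b26 and Klk1b27. Of these 9 genes, 7 had at least 1 probe set that the probe annotation assigns to that gene alone, out of 18193 genes with such a probe set. Klk1b22 and Klk1b26 are covered only by probe sets that each list a second gene. Each of the 7 genes was represented by its probe set with the highest mean over all arrays.

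The values come from Affymetrix arrays of total RNA from 6 tissues of males aged 11 to 14 weeks. The strains were 129S2, A/J, AKR/J, C3HeB/FeJ, DBA2/J and C57BL/6J, with 3 arrays for each strain in kidney, testis, brain, heart, liver and lung. No treatment is labelled, 129S2 came from a different supplier than the other strains, and C57BL/6J is given last as the strain that others are set against. Supplier and strain cannot be told apart for 129S2. Values are log2 RMA signals, a probe-level summary in which 1 unit is a doubling of signal.

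Tissue kallikrein, the product of Klk1, cuts kininogen to release kinins, short peptides that widen vessels and alter salt handling in the kidney, where distal tubule segments make it. The Klk1b genes are a rodent expansion of the same family, best known from the male submandibular gland, where androgens raise many of them. In the mouse, Klk1b21, Klk1b24 and Klk1b27 have been described in Leydig cells, the androgen-producing cells of the testis. Klk1b16 encodes gamma-renin, a kallikrein that acts on angiotensinogen, and the protein of Klk1b22 was named for binding epidermal growth factor.

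The sequences below are shown because these genes are near-copies of one another and because Klk1b21, Klk1b24 and Klk1b27 had similar strain patterns in testis. All 9 genes had a promoter window in RefSeq (GRCm38.p6), read here from 250 bases before to 30 bases after each annotated start, on the plus strand. The windows of Klk1b27, Klk1b21 and Klk1b24 share an identical run of 89 bases, which was looked for after the testis values had been seen. That run occurs in 3 of 32851 RefSeq windows, those of the same 3 genes. The segment printed starts with this run in Klk1b27 and ends with its TTTAAA motif (chr7:44052153-44052278). The aligned segments lie at chr7:44102177-44102302 for Klk1b21, chr7:44188086-44188211 for Klk1b24, chr7:44216311-44216437 for Klk1b5, chr7:44137132-44137256 for Klk1b16, chr7:43995718-43995842 for Klk1b11 and chr7:44225290-44225389 for Klk1. Capitals mark bases that differ from Klk1b27 in the alignment or are inserted relative to it.
Klk1b27: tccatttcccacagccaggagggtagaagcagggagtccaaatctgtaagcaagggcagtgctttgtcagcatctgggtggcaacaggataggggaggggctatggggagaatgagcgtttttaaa
Klk1b21: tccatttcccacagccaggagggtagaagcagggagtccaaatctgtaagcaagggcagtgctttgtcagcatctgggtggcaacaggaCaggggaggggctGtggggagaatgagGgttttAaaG
Klk1b24: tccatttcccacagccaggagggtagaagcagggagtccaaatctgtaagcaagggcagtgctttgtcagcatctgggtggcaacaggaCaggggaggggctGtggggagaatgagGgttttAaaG
Klk1b5: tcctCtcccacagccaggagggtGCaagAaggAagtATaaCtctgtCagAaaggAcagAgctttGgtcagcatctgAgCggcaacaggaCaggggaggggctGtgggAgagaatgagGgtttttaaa
Klk1b16: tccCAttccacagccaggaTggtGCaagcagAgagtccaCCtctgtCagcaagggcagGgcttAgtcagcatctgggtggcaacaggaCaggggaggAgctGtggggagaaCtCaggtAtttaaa
Klk1b11: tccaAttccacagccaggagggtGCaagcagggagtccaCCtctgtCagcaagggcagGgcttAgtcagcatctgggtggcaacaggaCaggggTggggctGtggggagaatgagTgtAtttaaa
Klk1: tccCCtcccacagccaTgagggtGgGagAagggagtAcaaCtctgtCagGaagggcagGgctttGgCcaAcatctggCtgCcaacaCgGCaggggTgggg
Klk1b21 and Klk1b24 were identical to each other over the segment and matched Klk1b27 at 121 of its 126 bases (96.0%). Klk1b11 matched it at 112 bases (88.9%), Klk1b26 at 86.5%, Klk1b5 and Klk1b16 each at 85.7% and Klk1b22 at 81.7% of the bases. The segments of Klk1b26 and Klk1b22 are not printed because neither gene has a probe set of its own. The Klk1 window covered only 100 of the 126 bases, of which 80 matched. The motif TTTAAA, which reads the same on both strands, was in the windows of 8 of the 9 genes, all but Klk1, against 12.8% of all RefSeq windows of that length. AGAACA or its reverse complement TGTTCT was in the Klk1b24 window alone among the 9, against 17.8% of all windows. These are sequences of the reference assembly, and the promoters of the other strains were not analysed here.

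In testis, 5 of the 7 genes differed between strains. The limma F test over the 6 strain means, adjusted by Benjamini-Hochberg over 18193 genes, passed 0.05 for Klk1b5, Klk1b16, Klk1b21, Klk1b24 and Klk1b27 and not for Klk1 and Klk1b11. Of all genes tested, 40.5% passed in testis. Strain means at least 1 log2 unit apart were found for the same 5 members and for 4.09% of all genes. The median distance between the highest and the lowest strain mean was 2.08 over the 7 members and 0.24 over all genes. Of 105 member strain pairs, 54 (51.4%) passed after adjustment over all genes and pairs, against 15.8% of all gene pairs.

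Klk1b27 had the widest spread of the 7 members in testis. Its log2 signals were 9.70, 9.42 and 9.57 in 129S2, 6.45, 6.52 and 5.42 in A/J, 9.18, 9.21 and 9.24 in AKR/J, 5.79, 6.00 and 6.03 in C3HeB/FeJ, 5.76, 5.25 and 5.30 in DBA2/J, and 8.95, 8.73 and 8.5 in C57BL/6J. The arrays of 129S2, AKR/J and C57BL/6J lay between 8.5 and 9.70, those of A/J, C3HeB/FeJ and DBA2/J at 5.25 to 6.52, with no overlap. The difference of 129S2 minus DBA2/J was 4.13 ± 0.21 (SE, n = 3 each; limma adjusted p = 1.19e-10), a 17.5-fold difference on the RMA scale. DBA2/J minus C57BL/6J was -3.29 ± 0.21 (limma adjusted p = 2.83e-09). All 9 pairs that join a strain of the first range with one of the second passed, and so did 129S2 against C57BL/6J (0.84 ± 0.21, limma adjusted p = 0.00973) and A/J against DBA2/J (0.69 ± 0.21, limma adjusted p = 0.0317).

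Klk1b24 was high and low in the same strains. It read 8.89, 8.92 and 9.09 in 129S2, 6.96, 7.09 and 5.35 in A/J, 9.31, 9.26 and 9.27 in AKR/J, 6.02, 6.09 and 6.37 in C3HeB/FeJ, 6.39, 5.33 and 5.41 in DBA2/J, and 9.32, 9.34 and 8.94 in C57BL/6J. The A/J arrays were spread widely, with 1 array near the lowest DBA2/J values and 2 above all C3HeB/FeJ and DBA2/J arrays. AKR/J minus DBA2/J was 3.57 ± 0.33 (SE, n = 3 each; limma adjusted p = 3.69e-07), an 11.9-fold difference. A/J, C3HeB/FeJ and DBA2/J did not pass against one another, nor did 129S2, AKR/J and C57BL/6J.

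Klk1b21 followed with a smaller distance. Its values were 9.13, 9.19 and 9.30 in 129S2, 7.43, 7.44 and 6.93 in A/J, 8.94, 9.15 and 9.10 in AKR/J, 7.35, 7.27 and 7.66 in C3HeB/FeJ, 6.95, 6.84 and 6.90 in DBA2/J, and 8.88, 9.25 and 9.19 in C57BL/6J. The lowest array of 129S2, AKR/J and C57BL/6J (8.88) stood above the highest of the other strains (7.66). 129S2 minus DBA2/J was 2.31 ± 0.13 (SE, n = 3 each; limma adjusted p = 4.21e-10), a 4.96-fold difference. Within the lower range, C3HeB/FeJ exceeded DBA2/J by 0.53 ± 0.13 (limma adjusted p = 0.00807).

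Klk1b16, the gamma-renin gene, was graded rather than split. It read 5.92, 5.86 and 5.62 in 129S2, 3.82, 4.18 and 4.07 in A/J, 5.02, 4.73 and 4.80 in AKR/J, 4.73, 4.96 and 4.52 in C3HeB/FeJ, 3.81, 3.65 and 3.71 in DBA2/J, and 5.13, 5.45 and 5.20 in C57BL/6J. The strain means ran in the order 129S2, C57BL/6J, AKR/J, C3HeB/FeJ, A/J and DBA2/J. AKR/J and C3HeB/FeJ did not pass against each other (0.11 ± 0.12, limma adjusted p = 0.622), nor A/J against DBA2/J (0.30 ± 0.12, limma adjusted p = 0.108), whereas the other 13 pairs did. 129S2 minus DBA2/J was 2.08 ± 0.12 (SE, n = 3 each).

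Klk1b5 ran the other way. Its testis values were 6.70, 6.4 and 6.35 in 129S2, 7.48, 7.42 and 7.51 in A/J, 6.29, 6.23 and 6.30 in AKR/J, 7.19, 7.36 and 7.47 in C3HeB/FeJ, 7.56, 7.70 and 7.56 in DBA2/J, and 6.07, 6.37 and 6.10 in C57BL/6J. Here A/J, C3HeB/FeJ and DBA2/J held the upper range, 7.19 to 7.70, and 129S2, AKR/J and C57BL/6J the lower, 6.07 to 6.70. DBA2/J minus C57BL/6J was 1.43 ± 0.10 (SE, n = 3 each; limma adjusted p = 5.31e-09), a 2.69-fold difference. A second Klk1b5 probe set spanned 1.56 between the same strains.

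Klk1b11 lay between 4.56 and 5.15 in all 18 testis arrays and did not pass the F test (limma adjusted p = 0.142; 0.0426 to 0.315 when 1 array at a time was left out, under 0.05 without array 4 of 129S2). AKR/J minus DBA2/J, its single pair below the threshold, was -0.29 ± 0.09 (SE, n = 3 each; limma adjusted p = 0.0357). The Klk1 probe set taken by its mean signal, 1460050_x_at, lay between 6.43 and 6.73 (limma adjusted p = 0.328). The plot of testis values shows the members that passed beside Klk1b11.

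**Figure D1:**
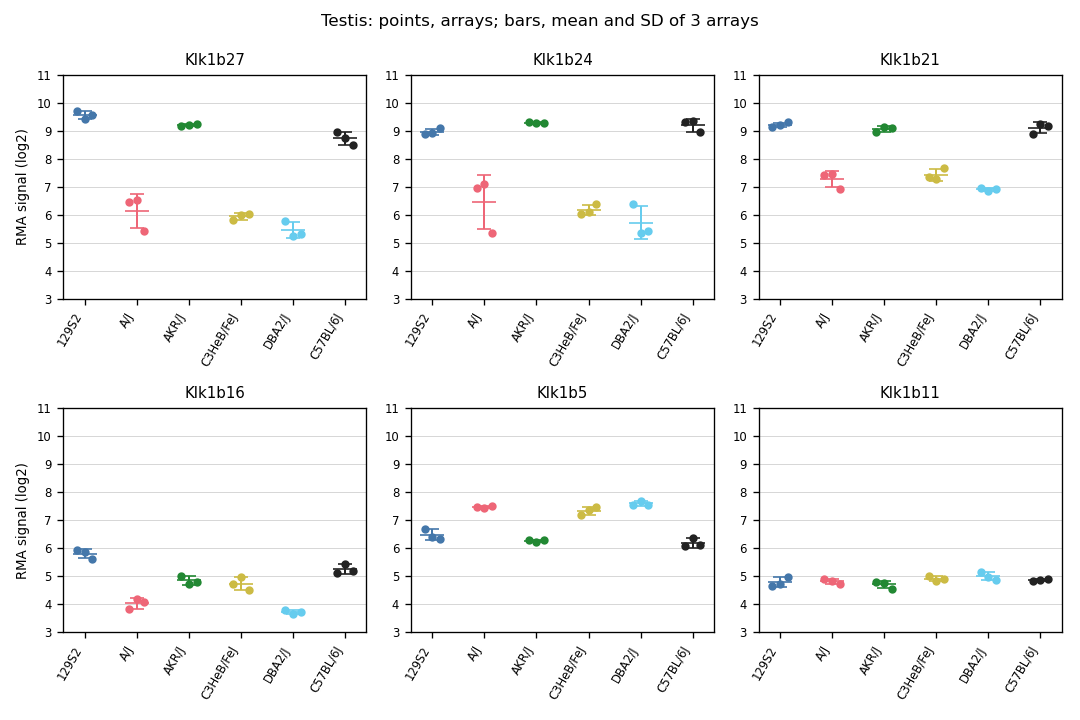
Log2 RMA signal (vertical axis) of 6 members in testis, by strain (horizontal axis). Points are arrays and bars the mean and SD of 3 arrays. Klk1b27, Klk1b24 and Klk1b21 arrays of 129S2, AKR/J and C57BL/6J lie above those of A/J, C3HeB/FeJ and DBA2/J, Klk1b5 arrays lie in the reverse order, and Klk1b11 stays between 4.56 and 5.15.

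Of 7 listed Leydig cell markers, 4 were measured (Cyp17a1, Cyp11a1, Star and Hsd17b3), and all 4 passed the F test, against 40.5% of all genes, with the highest mean in AKR/J. Their mean level was 9.87 to 10.12 in 129S2, 10.05 to 10.09 in A/J, 10.84 to 10.94 in AKR/J, 9.83 to 10.01 in C3HeB/FeJ, 9.67 to 9.92 in DBA2/J and 9.69 to 9.99 in C57BL/6J. AKR/J had the highest range and DBA2/J the lowest minimum, and the ranges of all strains but AKR/J lay between 9.67 and 10.12. Whole tissue was measured, so fewer cells of a type and less RNA per cell cannot be told apart. The 10 testis markers had a median spread of 0.08 between strain means, with 0 passing in limma and 1 at an unadjusted p under 0.05.

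Other tissues that carry kallikreins were looked for in the same arrays. The mean of 7 measured salivary gland markers (of 9 listed) was 4.96 to 5.55 over the 18 testis arrays, highest in DBA2/J and lowest in 129S2. Among them, Egf, a growth factor of the submandibular gland, averaged 6.22 ± 0.12 in 129S2, 6.45 ± 0.19 in A/J, 6.68 ± 0.13 in AKR/J, 9.07 ± 0.17 in C3HeB/FeJ, 8.94 ± 0.04 in DBA2/J and 5.80 ± 0.36 in C57BL/6J (SD, n = 3 each). Amy1 had another pattern, with means 1.42 apart, highest in AKR/J and lowest in 129S2. Only these 2 of the 7 passed the F test in testis, against 40.5% of all genes. Epididymis markers (7 of 8 measured) lay at 4.70 to 5.66, exocrine pancreas markers (9 of 11) at 5.58 to 5.82 and adrenal cortex markers (5 of 6) at 5.60 to 5.98, against array medians of 5.73 to 5.78. Hsd3b1, listed here with the adrenal cortex markers, averaged 9.28 over the testis arrays. It passed with strain means 1.23 apart, highest in A/J and lowest in 129S2. The cells that gave the Hsd3b1 signal were not identified, so it does not show adrenal tissue in these samples. The part of these markers in the kallikrein differences was not tested.

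In kidney, 6 of the 7 members passed the F test, against 46.1% of all genes. Only Klk1b5 and Klk1b16 also had strain means at least 1 log2 unit apart, a distance that 5.07% of all genes passed with. The median distance was 0.44 over the 7 members and 0.28 over all genes, and 42 of the 105 strain pairs (40.0%) passed, against 18.5% of all gene pairs. With the chosen probe sets, Klk1b27, Klk1b24, Klk1b16 and Klk1b5 each had their highest mean in C57BL/6J and their lowest in DBA2/J. Klk1b21 and Klk1b11 were highest in 129S2 and lowest in DBA2/J. These kidney signals were mostly low. Klk1b21 averaged 6.66 over the kidney arrays. It averaged 6.74 in brain, 6.58 in lung and 6.45 in heart, where it did not pass, though tissues are not on one scale. The others that passed in kidney averaged 4.16 (Klk1b27) to 5.57 (Klk1b5) there, below the kidney array medians of 5.79 to 5.89.

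Klk1b5, read by 1419010_x_at, was graded over the strains in kidney. It read 5.44, 5.30 and 5.30 in 129S2, 5.83, 5.78 and 5.52 in A/J, 6.09, 6.08 and 6.03 in AKR/J, 5.03, 5.05 and 4.94 in C3HeB/FeJ, 5.0, 4.73 and 4.43 in DBA2/J, and 6.77, 6.39 and 6.62 in C57BL/6J. All C57BL/6J arrays stood above all others. DBA2/J minus C57BL/6J was -1.87 ± 0.12 (SE, n = 3 each; limma adjusted p = 2.51e-09), a 3.66-fold lower signal in DBA2/J, where the same pair in testis differed by 1.43 in the other direction. Of its 15 pairs, 13 passed, and 129S2 against C3HeB/FeJ and C3HeB/FeJ against DBA2/J did not. The second Klk1b5 set, 1449313_at, spanned 1.41 in kidney, also with C57BL/6J highest. Its lowest mean was in C3HeB/FeJ (4.32), close to DBA2/J (4.34).

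Klk1b16 was highest in C57BL/6J as well. Its kidney values were 4.36, 4.56 and 4.97 in 129S2, 4.83, 5.23 and 5.25 in A/J, 5.45, 5.44 and 5.20 in AKR/J, 5.27, 4.58 and 5.0 in C3HeB/FeJ, 4.51, 4.39 and 4.38 in DBA2/J, and 6.12, 6.17 and 6.33 in C57BL/6J. The 3 C57BL/6J arrays did not overlap with any other strain, and the other strains overlapped in part. DBA2/J minus C57BL/6J was -1.78 ± 0.16 (SE, n = 3 each; limma adjusted p = 2.69e-07). 129S2, which had the highest testis mean, differed from C57BL/6J by -1.58 ± 0.16 in kidney (limma adjusted p = 1.22e-06).

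Klk1b27, Klk1b21 and Klk1b24 differed less between strains in kidney than in testis. Klk1b27 ranged from 3.78 to 4.51 over the 18 kidney arrays, with strain means 0.52 apart (limma adjusted p = 0.000134). Klk1b21 ranged from 6.38 to 6.84 (0.35 apart, limma adjusted p = 0.0063) and Klk1b24 from 4.87 to 5.63 (0.44 apart, limma adjusted p = 0.0122). Klk1b11 means were 0.44 apart (limma adjusted p = 0.0286). Klk1b24 no longer passed without array 11 (0.0747) or array 12 (0.0629) of C57BL/6J, with 0.000472 to 0.0747 over the 18 arrays left out. Klk1b11 no longer passed without array 3 of 129S2 (0.0508) or array 2 (0.117) or 3 (0.0926) of DBA2/J, with 0.0109 to 0.117 over the 18.

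Klk1, the tissue kallikrein gene, depended on the probe set. Its 4 single-gene probe sets did not report the same pattern: the one with the highest mean over all arrays, 1460050_x_at, lay between 6.32 and 6.71 in kidney with no difference past the threshold (limma adjusted p = 0.642). The set 1415837_at read 12.73, 13.02 and 13.34 in 129S2, 13.90, 13.88 and 13.92 in A/J, 13.99, 13.94 and 13.94 in AKR/J, 12.63, 12.61 and 12.46 in C3HeB/FeJ, 12.69, 12.51 and 12.69 in DBA2/J, and 14.12, 14.17 and 14.19 in C57BL/6J. Every array of A/J, AKR/J and C57BL/6J stood above every array of 129S2, C3HeB/FeJ and DBA2/J. In the fit over all 34945 single-gene probe sets, of which 41.5% passed in kidney, C3HeB/FeJ minus C57BL/6J was -1.60 ± 0.10 (SE, n = 3 each; limma adjusted p = 2.44e-09). That is a 3.02-fold lower signal in C3HeB/FeJ.

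In the other Klk1 sets that passed, C3HeB/FeJ or DBA2/J was again lowest in kidney. The set 1448107_x_at spanned 1.61 between the same 2 strains (limma F test over the 6 strains, adjusted p = 1.48e-09). The set 1455977_x_at spanned 0.87 with the lowest mean in DBA2/J (limma F test, adjusted p = 4.91e-05). Of 15 strain pairs, 11 passed for 1415837_at, 11 for 1448107_x_at, 8 for 1455977_x_at and 0 for 1460050_x_at, against 16.1% of all pairs in that fit. With 1415837_at, A/J, AKR/J and C57BL/6J did not pass against one another, nor did C3HeB/FeJ against DBA2/J. The flat set also lay between 6.14 and 7.51 in every other tissue, while 1415837_at lay between 3.23 and 5.44 in brain, heart, liver and lung. Array medians were 5.79 to 5.89 in kidney and 4.95 to 6.83 in those 4 tissues, so levels of different tissues are not on one scale.

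**Figure D2:**
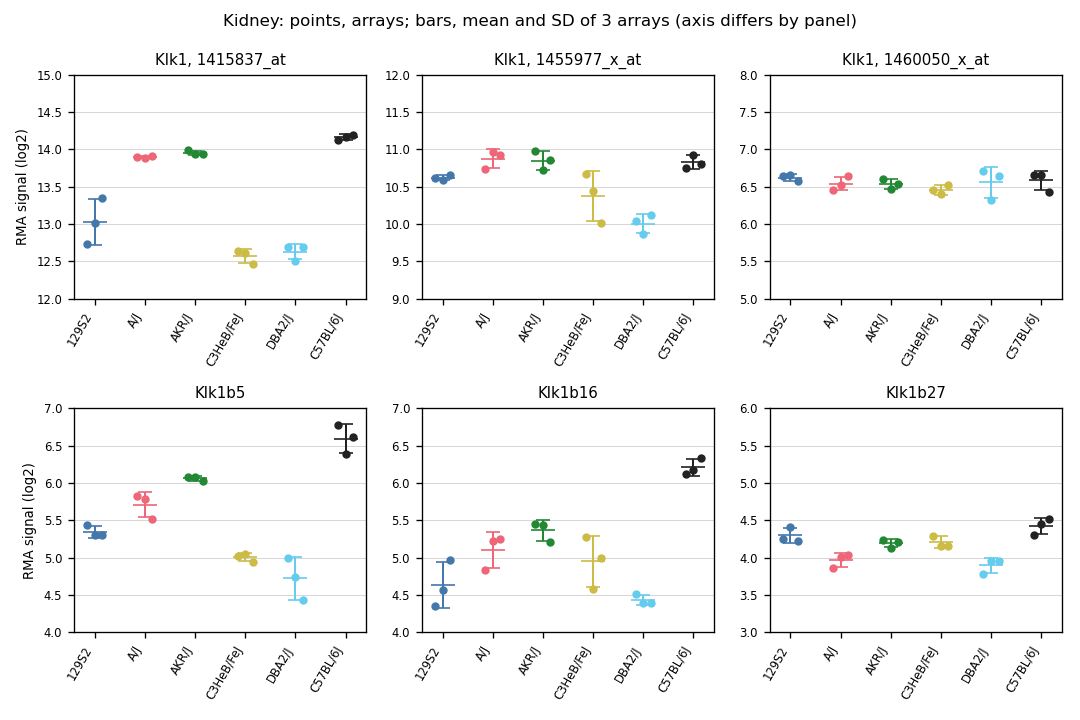
Log2 RMA signal (vertical axis, ranges differ by panel) in kidney by strain (horizontal axis) for 3 probe sets of Klk1 and for Klk1b5, Klk1b16 and Klk1b27. Points are arrays and bars the mean and SD of 3 arrays. C57BL/6J arrays are highest for Klk1 1415837_at, Klk1b5 and Klk1b16, while Klk1 1460050_x_at stays between 6.32 and 6.71.

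In testis, 2 of the 3 Klk1 sets that passed in kidney also passed. The set 1415837_at read 7.73, 7.52 and 7.73 in 129S2, 7.73, 7.80 and 7.77 in A/J, 7.61, 7.39 and 7.84 in AKR/J, 8.03, 7.85 and 7.92 in C3HeB/FeJ, 7.20, 7.65 and 7.70 in DBA2/J, and 6.93, 6.62 and 6.50 in C57BL/6J. C57BL/6J, the highest strain in kidney, was the lowest in testis with no overlap. C3HeB/FeJ minus C57BL/6J was 1.25 ± 0.13 in testis (SE, n = 3 each; limma adjusted p = 1.30e-06). All 5 pairs with C57BL/6J passed for this set and for 1448107_x_at, and so did C3HeB/FeJ against DBA2/J for 1415837_at (0.42 ± 0.13, limma adjusted p = 0.0401), whereas 1455977_x_at did not pass the F test (limma adjusted p = 0.567). In this fit 33% of all single-gene probe sets and 12.5% of their strain pairs passed in testis.

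In lung, 1415837_at and 1448107_x_at also passed, at lower levels. The first read 5.32, 5.19 and 5.35 in 129S2, 5.0, 5.12 and 4.97 in A/J, 5.21, 5.44 and 4.82 in AKR/J, 4.57, 4.64 and 4.57 in C3HeB/FeJ, 4.28, 4.44 and 4.23 in DBA2/J, and 4.55, 4.69 and 4.47 in C57BL/6J. The arrays of 129S2, A/J and AKR/J stood above those of the other strains. 129S2 minus DBA2/J was 0.97 ± 0.12 (SE, n = 3 each; limma adjusted p = 2.60e-05), and 31.7% of single-gene probe sets passed in lung.

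In brain, heart, liver and lung, 0 of the 7 members passed the limma F test with the chosen probe sets, where 23.1%, 21%, 31.6% and 32.5% of all genes did. At an unadjusted p under 0.05 there were 2 members in brain, 1 in heart, 2 in liver and 0 in lung. The widest distance between strain means was 0.28 in brain (Klk1b27), 0.27 in heart (Klk1b5 and Klk1b21), 0.31 in liver (Klk1b5) and 0.29 in lung (Klk1b24). Single pairs passed in 3 of the tissues, against 7.16% of all gene pairs in brain, 6.59% in heart and 11.7% in liver, and none did in lung, against 11.4%. These were 129S2 minus C57BL/6J for Klk1b27 in brain (0.28 ± 0.08), DBA2/J minus C57BL/6J for Klk1b21 in heart (-0.27 ± 0.07) and 129S2 minus DBA2/J for Klk1b21 in liver (-0.29 ± 0.08; SE, n = 3 each).

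Some of these results turned on 1 array. In brain, Klk1b16 and Klk1b24 passed without array 2 of C3HeB/FeJ (limma adjusted p = 0.00794 and 0.0300), and Klk1b27 without array 2 of 129S2 (0.0485). Over the 18 arrays left out in turn, the adjusted p ran from 0.00794 to 0.365 for Klk1b16, 0.0300 to 0.546 for Klk1b24 and 0.0485 to 0.333 for Klk1b27. In liver, Klk1b21 passed without array 3 of A/J (0.0234) or array 11 of C57BL/6J (0.0259), within 0.0234 to 0.155. Klk1b5 passed there without array 1 (0.0479) or 2 (0.0306) of AKR/J or array 10 of C57BL/6J (0.0441), within 0.0306 to 0.134. In lung, Klk1b27 passed without array 2 of C57BL/6J (0.0297), within 0.0297 to 0.238.

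**Figure D3:**
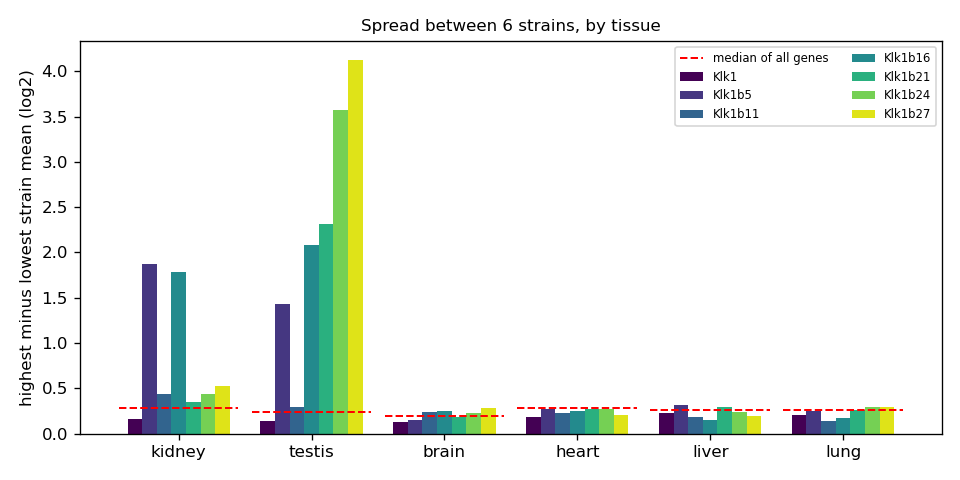
Distance between the highest and the lowest strain mean in log2 units (vertical axis) for the 7 members, by tissue (horizontal axis), with the median of all 18193 genes as a dashed line. Testis bars reach 4.13 for Klk1b27, kidney bars reach 1.87 for Klk1b5, and no bar exceeds 0.31 in brain, heart, liver or lung.

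The strain differences changed with the tissue. A limma fit over the arrays of all tissues, with the animal as a random block, gave a strain by tissue interaction for 6 of the 7 members, against 72.5% of all genes. Between kidney and testis alone, 6 of 7 passed as well, against 42.6% of all genes. The adjusted p for kidney against testis was 8.07e-36 for Klk1b27, 5.09e-33 for Klk1b21, 5.31e-28 for Klk1b5, 4.38e-25 for Klk1b24 and 1.55e-20 for Klk1b16. It was 0.00345 for Klk1b11 and 0.949 for the Klk1 set 1460050_x_at, while the other Klk1 sets gave 2.83e-25, 3.60e-25 and 2.96e-09, in a fit in which 36.3% of single-gene probe sets passed.

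Klk1b22 shares its only probe set, 1425182_x_at, with Klk1b9, and the signal cannot be assigned to either gene. In the fit over all 45037 probe sets it passed in all 6 tissues, where 36.8% passed in kidney, 28.6% in testis, 19.9% in brain, 16.9% in heart, 23.9% in liver and 29.6% in lung. In kidney it read 10.27, 10.5 and 10.63 in 129S2, 11.20, 11.11 and 11.28 in A/J, 11.22, 11.23 and 11.25 in AKR/J, 10.19, 10.12 and 9.97 in C3HeB/FeJ, 9.69, 9.40 and 9.67 in DBA2/J, and 11.64, 11.64 and 11.59 in C57BL/6J. The strain means spanned 2.04, a 4.11-fold difference (limma adjusted p = 1.21e-11), and 14 of 15 pairs passed, all but A/J against AKR/J, against 14.1% of all probe-set pairs. In testis A/J (8.14 to 8.46) and DBA2/J (8.09 to 8.24) were lowest, and the means spanned 1.08 (limma adjusted p = 4.26e-09). There 11 pairs passed, against 10.8% of all pairs.

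Lung set different strains apart for this shared probe set. It read 7.93, 8.13 and 7.71 in 129S2, 5.60, 5.89 and 5.71 in A/J, 5.70, 5.78 and 5.56 in AKR/J, 7.99, 8.29 and 7.85 in C3HeB/FeJ, 5.80, 5.76 and 5.72 in DBA2/J, and 5.42, 5.40 and 5.58 in C57BL/6J. 129S2 and C3HeB/FeJ arrays lay at 7.71 and above, and all others at 5.89 and below. C3HeB/FeJ minus C57BL/6J was 2.58 ± 0.12 (SE, n = 3 each; limma adjusted p = 1.40e-10), a 5.96-fold difference. The 8 pairs that join 129S2 or C3HeB/FeJ with another of the 4 strains passed in lung, against 10.4% of all pairs. The same 8 passed in heart, against 5.37%, where 129S2 read 5.97 to 6.12, C3HeB/FeJ 6.27 to 6.86 and the other strains 4.73 to 5.37.

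In brain, C3HeB/FeJ read 6.94, 6.86 and 6.85, against 5.28, 5.61 and 5.14 in C57BL/6J, and 4 pairs passed, all with C3HeB/FeJ, against 6.43% of all pairs. The brain arrays of 129S2 (6.72, 5.62 and 5.95) and AKR/J (5.30, 6.39 and 5.18) were spread widely. In liver, C3HeB/FeJ was highest at 6.42 to 6.51 and the means spanned 0.92 (limma adjusted p = 0.00011), with 7 pairs passing against 8.52% of all pairs. In lung, adipose markers (4 of 6 measured) ran from 5.73 to 8.93 over the arrays. Of these, 3 passed, against 32.5% of all genes, with the highest mean in C3HeB/FeJ. Of 6 heart markers, 2 passed in lung, Myl2 and Actc1, near the share of 32.5% over all genes. Both were highest in C3HeB/FeJ. Myl2 was lowest in 129S2 lungs and Actc1 in A/J lungs. Their part in the shared signal was not tested.

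**Figure D4:**
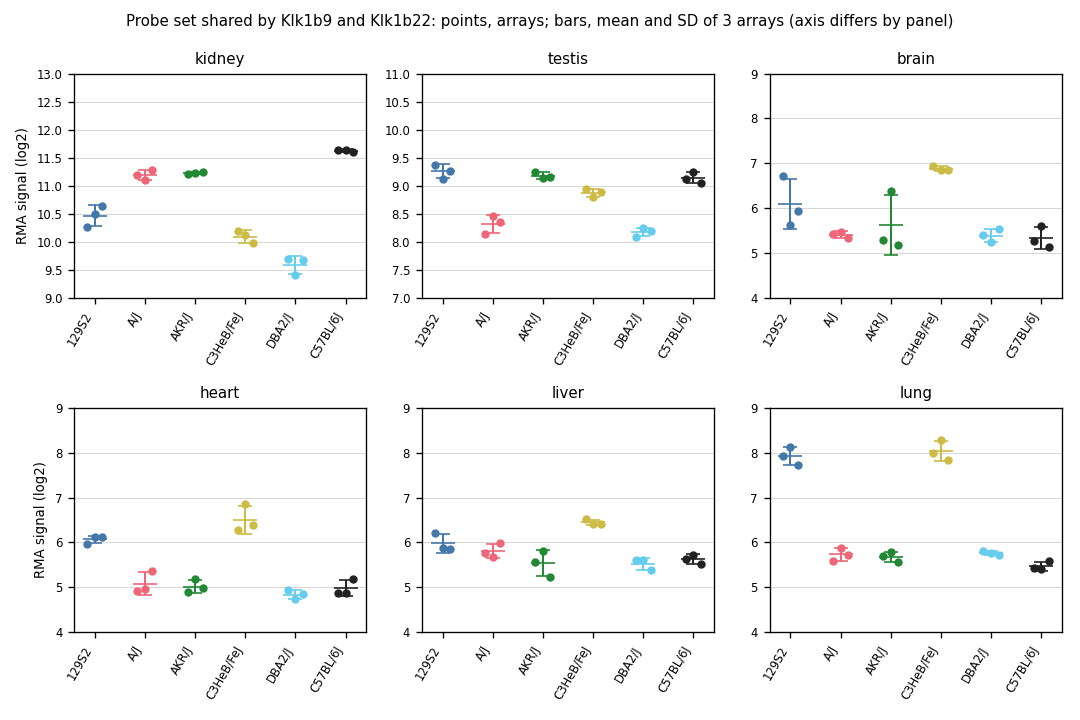
Log2 RMA signal (vertical axis, ranges differ by panel) of the probe set shared by Klk1b9 and Klk1b22 in 6 tissues, by strain (horizontal axis). Points are arrays and bars the mean and SD of 3 arrays. C57BL/6J is highest in kidney at 11.59 to 11.64, and 129S2 and C3HeB/FeJ are highest in lung at 7.71 to 8.29.

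Klk1b26 shares its probe set, 1419090_x_at, with Egfbp2. It passed in testis, where it read 8.40, 8.28 and 8.46 in 129S2, 7.91, 7.95 and 7.70 in A/J, 8.40, 8.37 and 8.44 in AKR/J, 8.57, 8.24 and 8.61 in C3HeB/FeJ, 7.94, 7.61 and 7.63 in DBA2/J, and 8.43, 8.55 and 8.29 in C57BL/6J. A/J and DBA2/J arrays lay below those of the other 4 strains. The means spanned 0.74 (limma adjusted p = 1.52e-05). In the other tissues it did not pass, and its adjusted p in kidney was 0.133.

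Of 5 other glandular kallikrein genes listed, Klk1b1 and Klk1b8 were measured alone. Both passed in testis and in kidney, where 40.5% and 46.1% of all genes passed. Klk1b8 read 10.13, 10.26 and 10.17 in 129S2, 9.71, 9.87 and 9.94 in A/J, 10.06, 9.95 and 10.19 in AKR/J, 10.21, 10.31 and 10.17 in C3HeB/FeJ, 8.37, 8.23 and 8.12 in DBA2/J, and 10.23, 10.31 and 10.30 in C57BL/6J testes. DBA2/J alone was low, and the means spanned 2.04 (limma adjusted p = 1.89e-12). Klk1b1 means were 0.76 apart in testis, with 129S2 highest. Of 12 kallikrein-related peptidase genes outside the glandular set (Klk4 to Klk15), 10 were measured. In testis 0 of these 10 passed in limma, against 40.5% of all genes, and 0 had an unadjusted p under 0.05. In kidney 2 of the 10 passed (Klk5 and Klk8), against 46.1% of all genes, with strain means under 0.4 apart.

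Genes on which kallikreins act, or that handle kinins, formed a list of 15, of which 13 were measured. In kidney 9 of the 13 passed, against 46.1% of all genes, with a median distance of 0.45 between strain means, against 0.28. In testis 6 passed, near the 40.5% of all genes, with a median distance of 0.31, against 0.24. Kng1, the kininogen from which kinins are cut, averaged 11.16 over the kidney arrays with strain means 0.45 apart, highest in C57BL/6J and lowest in DBA2/J (limma adjusted p = 0.000696). The kinin receptors Bdkrb1 and Bdkrb2 did not pass in kidney or testis, and Bdkrb2 means were 1.97 apart in lung (limma adjusted p = 4.95e-07), highest in DBA2/J.

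Among the enzymes that break kinins down, Cpn1 had the widest distance between strains in kidney. Cpn1, a subunit of carboxypeptidase N, averaged 5.76 ± 0.10 in 129S2, 6.04 ± 0.12 in A/J, 5.30 ± 0.16 in AKR/J, 5.81 ± 0.06 in C3HeB/FeJ, 5.51 ± 0.18 in DBA2/J and 9.48 ± 0.07 in C57BL/6J kidneys (SD, n = 3 each). In testis it was also high in C57BL/6J alone, at 7.5 ± 0.23, against 4.53 to 4.82 in the other means. Mme, the neutral endopeptidase neprilysin, averaged 9.19 ± 0.14 in DBA2/J kidneys and 9.92 or more in the other strains' means. Ace, which cuts bradykinin, passed in kidney with means 0.53 apart and did not pass in testis.

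All 6 androgen-responsive kidney genes, listed because androgens raise several kallikreins, passed in kidney, against 46.1% of all genes. Odc1, ornithine decarboxylase, averaged 12.70 ± 0.13 in 129S2, 12.48 ± 0.10 in A/J, 13.48 ± 0.06 in AKR/J, 13.40 ± 0.18 in C3HeB/FeJ, 13.60 ± 0.28 in DBA2/J and 13.23 ± 0.05 in C57BL/6J (SD, n = 3 each). Odc1, Gusb and Slco1a1 had their highest means in DBA2/J, and Kap and Cyp7b1 in 129S2. Acsm3 was highest in C57BL/6J and low in A/J alone, at 11.14 ± 0.02 against 12.38 or more. Of 12 distal nephron and collecting duct markers, 11 were measured and all 11 passed in kidney, against 46.1% of all genes. Their mean level ran from 9.10 to 9.82, highest in 129S2 and lowest in DBA2/J. Of the 11, 2 had strain means at least 1 log2 unit apart, Pvalb and Calb1. Pvalb means were 2.01 apart, highest in 129S2 and lowest in DBA2/J. Calb1, a marker of the tubule segments that make kallikrein, averaged 11.63 ± 0.11 in C3HeB/FeJ kidneys and 12.81 ± 0.10 in C57BL/6J kidneys, its lowest and highest means. The part of these genes and markers in the kallikrein differences was not tested.

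Patterns most like a member were taken over the 18 arrays of a tissue for the member that passed with the highest signal. With the chosen probe sets this was Klk1b21 in both tissues. In testis, Cfhr3 (r = 0.97), Cst9 (r = 0.967) and Gm11149 (r = 0.957) had the highest Pearson correlations with Klk1b21 among 7366 genes that passed there. Cst9, a cystatin family gene, averaged 11.55 ± 0.11 in 129S2, 8.77 ± 0.10 in A/J, 11.64 ± 0.09 in AKR/J, 8.56 ± 0.06 in C3HeB/FeJ, 8.77 ± 0.07 in DBA2/J and 11.47 ± 0.04 in C57BL/6J (SD, n = 3 each). The arrays form separate groups by strain, so these values describe the likeness of strain means and carry no p. In kidney the closest were Ctrl, a chymotrypsin-like protease gene (r = 0.909), Frmd6 (r = 0.901) and Smtnl2 (r = 0.863), among 8383 genes. The kidney strain means of Klk1b21 were only 0.35 apart, so these values describe likeness to a small difference. Klk1 entered this choice by its flat probe set, which did not pass. The Klk1 set 1415837_at, which passed in kidney at a mean of 13.37, was not used for likeness.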

How the data were processed

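RNA of 6 tissues was hybridised to Affymetrix arrays, with 3 µg of RNA for each, per the labels' protocols, which speak of pools where titles name single animals. The authors deposited log2 RMA values, per the submitters' processing notes; version and genome build are not given in the sources used here. Array medians differed between tissues and little within them, so tests stayed within a tissue. Per tissue, limma 3.58.1 in R 4.3.3 fitted 1 mean per strain to 18193 genes, each by its single-gene probe set with the highest mean. Left out were 64 control probe sets, 932 naming more than 1 gene and 9160 naming none. F tests were adjusted over genes, and 15 strain pairs over 272895 gene pairs, at 0.05. Interactions used all arrays and 22 animals as a block (consensus correlation 0.0192). Fits were tested on simulated data. In 4 arrays, title and source name give different animal numbers, and the title was used; the labels name separate males, but p-values may still measure technical spread.

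Members and lists were chosen with earlier results of these data known. Named genes were all members, list genes that passed with strain means at least 1 log2 unit apart (a selection is given), and the 3 genes most like the brightest member in kidney and testis. Kinin genes, Kap, Cyp7b1, Klk5, Klk8, Klk1b1 and Ace named outside that rule were chosen after their values were seen. Probe sequences were not used here, and signal from near-identical kallikreins in one probe set was not tested; names ending in _x_at mark sets whose probes can bind other transcripts. Promoters were aligned with Biopython 1.88.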

Additional observations from a re-analysis of the deposited data

Results flagged for a closer look

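The strain differences of 6 members differed between tissues by a test of the difference itself, the strain by tissue interaction in limma. This interaction also passed for 72.5% of all genes over the 6 tissues and for 42.6% between kidney and testis. Over the 6 tissues its adjusted p was 1.94e-37 for Klk1b27, 1.66e-35 for Klk1b21, 3.14e-26 for Klk1b24, 2.25e-24 for Klk1b16, 5.57e-22 for Klk1b5 and 0.0356 for Klk1b11. Between kidney and testis it was 8.07e-36 for Klk1b27, 5.09e-33 for Klk1b21, 5.31e-28 for Klk1b5, 4.38e-25 for Klk1b24, 1.55e-20 for Klk1b16 and 0.00345 for Klk1b11. Klk1b5 is the member whose DBA2/J minus C57BL/6J difference was -1.87 in kidney and 1.43 in testis. For Klk1b11 the call over 6 tissues was lost without any 1 of 9 animals (animals 1 and 3 of 129S2, animal 3 of A/J, animals 1, 2 and 3 of C3HeB/FeJ, animals 1 and 2 of DBA2/J and animal 2 of C57BL/6J; adjusted p 0.0133 to 0.174 over 22 animals left out in turn). Its kidney against testis call was lost without animal 2 of DBA2/J (0.0506, within 0.00112 to 0.0506).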

How the results depend on the processing

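The 5 testis members and Klk1b5, Klk1b16, Klk1b21 and Klk1b27 in kidney passed under every setting that could be run on them. Requiring a mean log2 of at least 6 left 2 members to test in kidney, of which 1 passed with 5 pairs; it gave 0 pairs in brain and 2 in heart. Renormalizing by quantiles or centring on medians gave 0 member pairs in brain and 2 in liver, and an intensity trend gave 0 in heart. Averaging all single-gene probe sets of a gene gave 1 member passing in liver (with 2 pairs) and 1 in lung (with 9 pairs). That average turned the Klk1 difference of DBA2/J minus C3HeB/FeJ to -0.18 in testis and that of A/J minus AKR/J to -0.0542 in lung, and the brightest Klk1 set in testis, a choice made after seeing the data, turned DBA2/J minus C3HeB/FeJ to -0.31; these averages mix probe sets with unlike patterns. The main fits did not pair arrays by title number. Residual correlations of same-numbered arrays of different strains ran from -0.15 to 0.30 in testis and from -0.50 to 0.53 in heart. Their medians were 0.07 in testis, 0.06 in kidney and -0.01 in heart, against -0.01, -0.01 and 0.004 for other array pairs. These values do not settle whether title numbers pair the arrays. With the replicate block, 6 members and 43 pairs passed in kidney, 5 and 54 in testis, and 0 pairs in brain.

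Leaving out each array in turn gave 5 to 6 passing members and 34 to 45 pairs in kidney, 5 to 6 and 51 to 60 in testis, 0 to 2 and 0 to 7 in brain, 0 and 0 to 2 in heart, 0 to 1 and 0 to 5 in liver, and 0 to 1 and 0 to 2 in lung. Leaving out each animal gave 5 to 6 members with either interaction, and 6 without the block. With 129S2 kidney arrays 3 and 4 averaged, because their source names share an animal number, 6 members and 40 pairs passed. Centring lost the Klk1b11 interaction over 6 tissues (adjusted p = 0.0584). With 3 arrays per strain, precision is limited by their number.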
